A study of Mus musculus with 14 samples.

Results

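RNA recovered with an antibody against AUTS2 was compared with the input RNA of the same cortex. The comparison uses 4 of the series' 14 libraries: AUTS2 RIP replicates A and B, and input replicates A and B. RIP stands for RNA immunoprecipitation, in which an antibody pulls a protein out of a lysate and the RNA that comes with it is sequenced. All 4 libraries were made from wild type cortex of the inbred mouse strain C57BL6/J at postnatal day 0.5, with no deletion, transgene or drug in either group. For each letter, 2 neonates were pooled, and the pool was divided between the AUTS2 pull-down, a control IgG pull-down and a 10% input, so a letter marks a shared tissue pool. The antibody recognises the C terminus of AUTS2. The IgG libraries (A and B) stand in a second table, and another table holds 4 wild type libraries and 4 conditional knockout libraries of frontal cortex, in which exon 15 of Auts2 was floxed and Cre came from Emx1. Transcripts were summed per gene symbol, and 14458 of 51626 symbols, those whose mean over the 4 libraries reached 1 FPKM, were analysed. FPKM means fragments per kilobase of transcript, scaled to the mapped fragments of the library, so a value is a share of a library and not an amount of RNA recovered.

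AUTS2 is a large nuclear and cytoplasmic protein whose gene is disrupted in some people with autism and intellectual disability. In the nucleus it is a component of PRC1.3 and PRC1.5, variant polycomb complexes that bring the acetyltransferase P300 to active genes. In the cytoplasm of neurons it acts on Rac1 and Cdc42, the GTPases that shape the actin cytoskeleton. A pull-down is read against the input because the input gives the level of each RNA before the antibody was added. It is read against IgG because some RNA stays on beads and antibody of any kind.

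Many genes differed between the pull-down and the input, in both directions and in both lettered pairs. With limma on log2(FPKM + 1), 2795 genes were higher in the RIP (19.3% of those tested) and 2393 were lower (16.6%) at an adjusted p under 0.05. All of these had the same sign in pair A and pair B, as did 78.8% of all genes tested. The median difference over all genes was -0.02 on the log2 scale. From the 5th to the 95th percentile, differences ran from -1.38 to 1.31. At least 2-fold in both pairs, 1009 genes were higher (6.98%) and 1063 lower (7.35%), and 120 genes were 2-fold apart in opposite directions in the pairs. The RIP libraries resembled each other (r = 0.972 over 14458 genes) more than the inputs did (r = 0.920), and r between a RIP and an input library ran from 0.837 to 0.861. These are descriptions across genes, which are not independent. The counts depended on every library: without RIP replicate A, RIP replicate B, input replicate A or input replicate B, 578, 835, 1854 and 1750 genes were higher and 450, 681, 1236 and 949 lower.

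**Figure D1:**
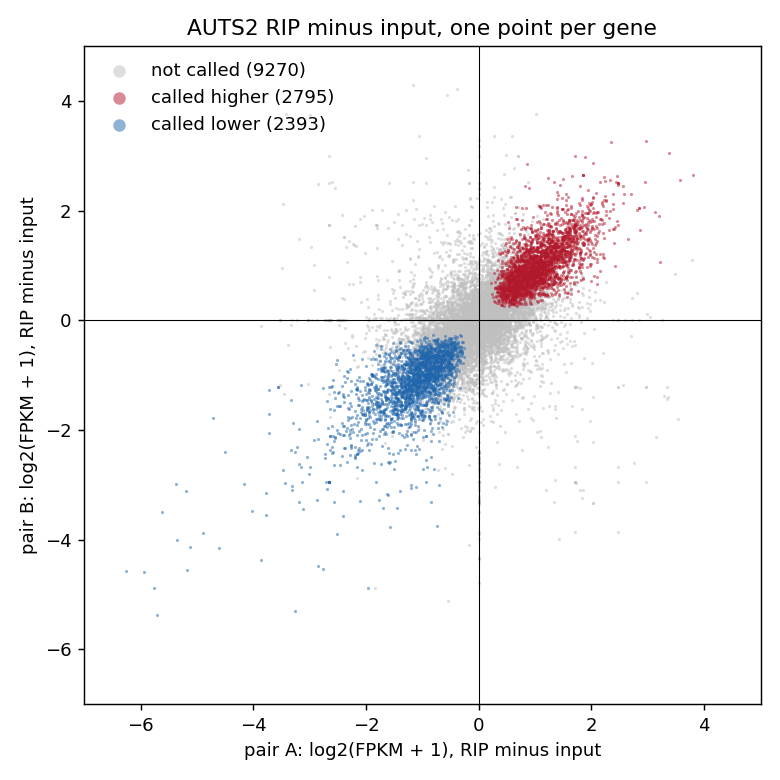
Difference between RIP and input in pair A (x axis) and pair B (y axis), both as differences of log2(FPKM + 1), with 1 point for each of 14458 genes. The 2795 genes called higher lie in the upper right and the 2393 called lower in the lower left, where differences reach further from 0 than in the upper right.

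The input libraries were dominated by fewer RNAs. The 10 most abundant genes took 13.0% and 13.8% of the summed FPKM of the inputs and 5.74% and 5.92% of that of the RIP libraries. The RIP libraries listed 56414 and 57726 transcripts above 0, the inputs 46758 and 44946. Read counts are not given, so depth is unknown. A value of 0 can be a failed estimate: 69 of the genes tested were listed at 0 in both inputs and 141 in both RIP libraries. No mitochondrially encoded RNA reached a mean of 1 FPKM.

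Auts2 RNA itself was higher in the RIP. It stood at 279.5 and 278.9 FPKM in the pull-down and at 139 and 185 FPKM in the inputs, without overlap. The difference was 0.80 on the log2 scale (SE 0.14, adjusted p = 0.00883, limma). IgG stood at 234 and 239 FPKM in its own table, which was scaled separately. Auts2 spans 131437333 to 132543344 of chromosome 5 (GRCm38, minus strand), where several annotated genes overlap it. The call was lost without either RIP replicate (log2 0.80 in each case) and with a trend on transcript length and GC removed (log2 0.23). Both paralogs were higher as well: Fbrsl1 at 93.5 and 88.5 against 42.9 and 37.1 FPKM (log2 1.17, adjusted p = 0.00157, limma), and Fbrs at 31.7 and 38.4 against 17.1 and 23.0 FPKM (log2 0.78, adjusted p = 0.0226, limma). Fbrs turned to -0.08 with the coding length and GC trend removed. Emx1, a homeobox gene of cortical progenitors, stood at 5.66 and 5.47 against 5.79 and 4.61 FPKM and did not pass (log2 0.09, adjusted p = 0.769, limma).

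Genes for AUTS2 and its polycomb partners were divided. Of 12 members tested, 5 were higher and 3 lower, with a median of 0.10. Auts2 and both paralogs are members of this list and were among those higher. Of the partner genes, Ep300 and Ring1 were higher. Ep300, which encodes P300, stood at 51.5 and 54.9 against 22.9 and 22.4 FPKM. The E3 ligase genes parted: Ring1 was higher (log2 1.04) and Rnf2, at 11.01 and 11.3 against 20.1 and 23.8 FPKM, was lower (log2 -0.92). Yaf2, a bridging subunit, was lower at 10.1 and 12.2 against 26.6 and 22.3 FPKM, and Csnk2a1, the casein kinase 2 catalytic subunit found in these complexes, was lower by the narrowest margin (log2 -0.70, adjusted p = 0.0497, limma). Of 10 PRC2 genes, Phf1, Ezh1 and Jarid2 were higher (log2 1.34, 0.80 and 0.73) and none lower. Suz12 stood at 7.08 and 7.14 against 12.01 and 9.18 FPKM and did not pass. Without RIP replicate A or RIP replicate B, 2 of the 8 called genes given values in this paragraph kept their call, and all 8 kept their direction. Without RIP replicate A, 2 genes of the list of AUTS2 and its partners were higher and 0 lower, and 0 PRC2 genes were called.

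The protein-coding genes that stood highest in the pull-down included several that encode very large proteins. Ryr1, the ryanodine receptor calcium channel best known from skeletal muscle, stood at 38.6 and 42.5 FPKM in the RIP and at 6.77 and 3.58 in the input (log2 2.80, SE 0.27, adjusted p = 0.00147, limma). Its mean was 7.83 times that of the input, and the groups were far apart. IgG was at 6.59 and 7.97 FPKM. Ryr3 stood at 75.5 and 72.3 against 11.96 and 15.7 FPKM (log2 2.35) and Ryr2, the cardiac and neuronal form, at 135 and 136 against 25.3 and 30.5 FPKM (log2 2.25). All 3 ryanodine receptor genes were among the genes called higher, and their groups did not overlap. Unc80, a subunit of the NALCN sodium leak channel, stood at 38.6 and 35.4 against 5.74 and 5.68 FPKM (log2 2.501).

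Structural proteins filled much of the rest of that ranking. Flna, the actin cross-linker filamin A whose loss disturbs neuronal migration, stood at 293 and 285 against 44.4 and 57.0 FPKM (log2 2.497, adjusted p = 0.000677, limma), the most abundant of the 9 named here. Neb, the giant actin ruler nebulin, stood at 35.8 and 38.5 against 3.83 and 8.46 FPKM. Tchh, trichohyalin of the hair follicle, stood at 16.7 and 18.3 against 2.23 and 2.10 FPKM. Also named here are Cntrl, the centrosomal protein centriolin (log2 2.39), Dnah2, an axonemal dynein heavy chain (log2 2.41), and the zinc finger gene Zscan18 (log2 2.42). In each of the 9 the lowest RIP value was above the highest input value. Without RIP replicate A or B, 7 of these 9 kept their call. Ryr1, Neb, Dnah2, Zscan18, Tchh, Unc80 and Ryr3 overlap other annotated genes, and no source used here says whether counting was by strand.

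**Figure D2:**
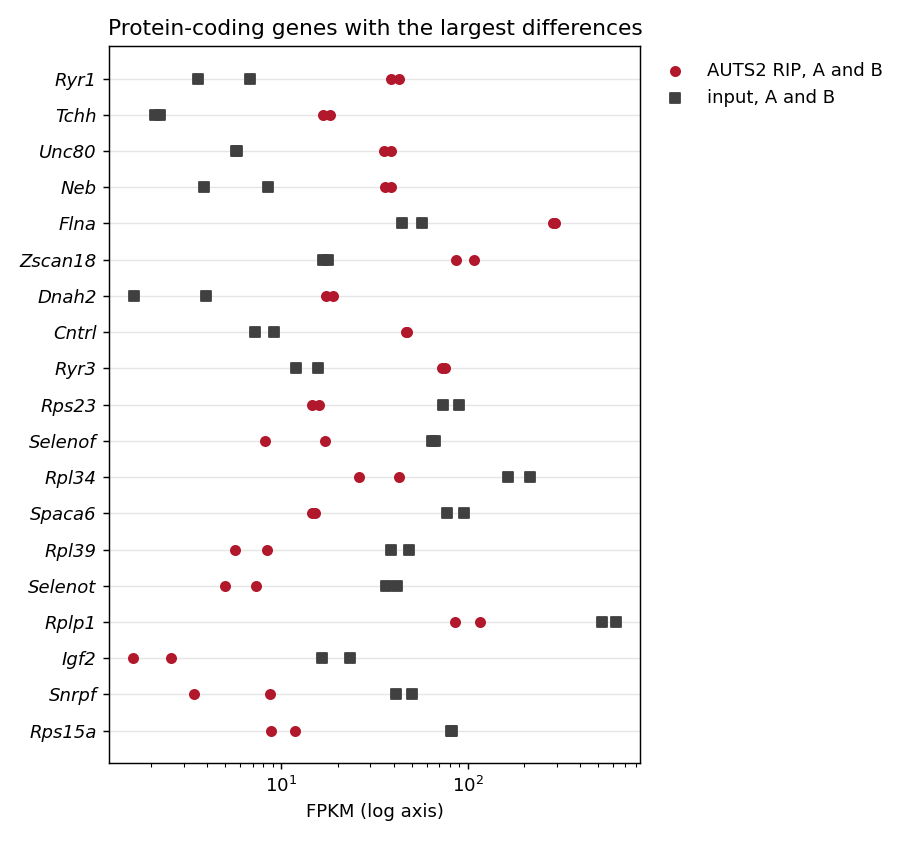
FPKM in each library (x axis, log scale) for 9 protein-coding genes with the largest rises (upper rows) and the 10 with the largest falls (lower rows). Circles are the RIP libraries and squares the inputs, and in no row do the groups overlap.

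Across genes, the difference between pull-down and input was graded by coding length. Here coding length is the annotated coding sequence of a gene's most abundant transcript, available for 10880 of the genes tested. Below 300 bases the median difference was -0.79 (342 genes), from 600 to 1200 bases -0.28 (2890 genes), from 2400 to 4800 bases 0.62 (1940 genes) and above 9600 bases 1.43 (72 genes). The pairs gave nearly the same medians at the ends, -0.83 and -0.75 for the shortest coding sequences and 1.47 and 1.38 for the longest. Among genes with over 9600 coding bases 87.5% were called higher and 0 lower, against the 19.3% higher of all genes tested. Among those under 300 bases 5.85% were higher and 45.9% lower.

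The length of the rest of the transcript did not follow the same course. Spearman's rho with the difference was 0.60 for coding length, 0.27 for whole transcript length, 0.02 for the 5′ UTR and -0.11 for the 3′ UTR, over the same 10880 genes. Among the longest of 5 equal groups of coding sequences the median difference went from 0.92 at the shortest 3′ UTRs to 0.54 at the longest. Among the shortest it went from -0.48 to -0.79. GC content was a second gradient: the median was -0.47 in the lowest of 5 GC groups and 0.36 in the highest, and coding length and GC were nearly uncorrelated (rho -0.01). A smooth curve on coding length described 36.6% of the variance of the difference across genes, one on transcript length 9.11%, one on GC 11.8%, and coding length with GC 48.6%. These figures describe genes of the same 4 libraries and carry no p. Fragment size, RNA integrity and priming are not given per library, and their part was not tested.

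The IgG libraries showed a smaller slope of the same sign. From the shortest to the longest coding sequences, IgG minus input went from -0.46 to 0.25, a value across separately scaled tables. RIP minus IgG, within 1 table, went from -0.23 to 1.07. The factors between the tables for the RIP libraries themselves were 1.018 for A and 1.015 for B. These contrasts share libraries, so their values are given side by side only.

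**Figure D3:**
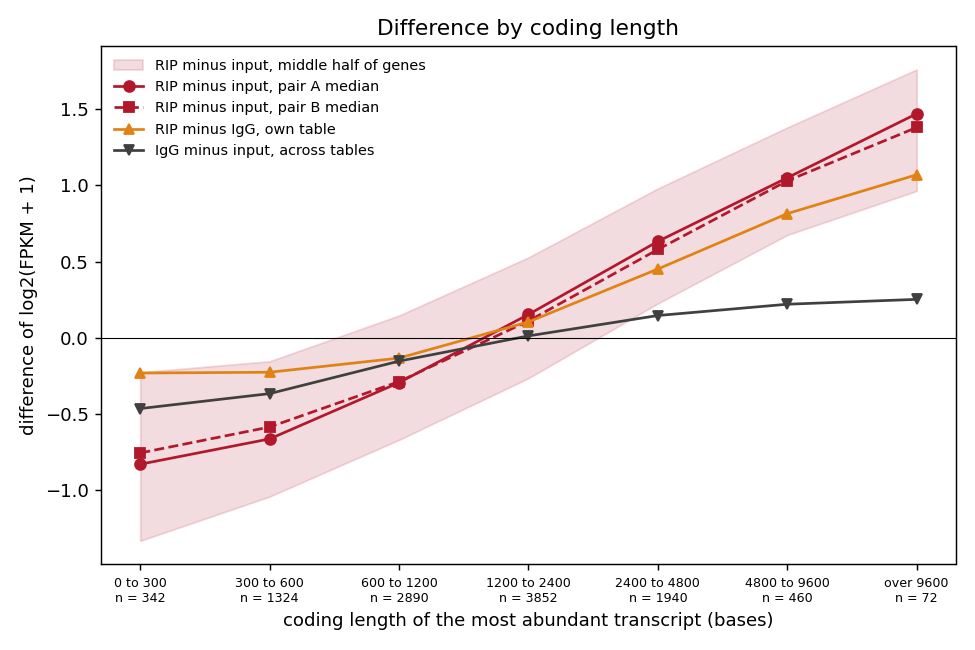
Median difference of log2(FPKM + 1) (y axis) in 7 bins of coding length in bases (x axis, with the number of genes). Circles and squares are RIP minus input in pairs A and B, the band is the middle 50% of genes, and the RIP minus input medians climb from below -0.7 to above 1.3 while IgG minus input ends at 0.25.

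Groups of genes for giant proteins were high. Of 14 giant ubiquitin ligase genes, 13 were higher and 0 lower, with a median of 1.32 against -0.02 for all genes tested. Mycbp2, a ligase of growing axons, stood at 212 and 224 against 65.5 and 62.4 FPKM (log2 1.75). Huwe1 stood at 182 and 172 against 58.5 and 60.9 FPKM (log2 1.55), and Hectd4 at 119 and 107 against 32.7 and 27.6 FPKM (log2 1.88). Of 13 genes for giant cytoskeletal linkers, 11 were higher and 0 lower (median 1.27). The list holds spectrins, plakins, nesprins and ankyrins, which link membranes and organelles to the cytoskeleton, and also Utrn, Dmd and Ahnak. Dmd and Ahnak were the 2 members not called (log2 0.94 and 0.14). Syne1, nesprin 1 of the nuclear envelope, was the highest at 94.3 and 96.1 against 17.3 and 18.8 FPKM (log2 2.34). Sptan1, the neuronal alpha spectrin, stood at 489 and 511 against 163 and 174 FPKM (log2 1.56).

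Motor and channel genes followed. Of 37 kinesin genes, 19 were higher and 0 lower, including the axonal cargo motors Kif1a (679 and 585 against 246 and 260 FPKM) and Kif21a (145 and 151 against 50.7 and 52.5 FPKM). Dync1h1, the heavy chain of cytoplasmic dynein, stood at 325 and 296 against 94.9 and 84.6 FPKM (log2 1.78). Of 14 voltage-gated sodium and calcium channel genes, 13 were higher and 0 lower (median 1.01). Cacna1g, a T-type calcium channel, led at 142 and 119 against 25.2 and 33.2 FPKM (log2 2.13). Of 6 calcium release channel genes, 5 were higher, Itpr1 among them at 97.9 and 91.2 against 30.8 and 24.9 FPKM (log2 1.73). With the coding length and GC trend removed, the linkers held 2 higher and 2 lower (median 0.09), the ligases 5 and 0 (0.31), the kinesins 6 and 1 (0.17) and the voltage-gated channels 2 and 0 (0.13). With RIP replicate A left out, the higher counts were 9 ligases, 10 linkers, 6 kinesins, 8 voltage-gated channels and 4 release channels.

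mRNAs bound by FMRP, the fragile X protein, form a list known for long coding sequences. Of 42 such mRNAs, 33 were higher and 0 lower in the RIP, and the median was 0.98. Map1b, a microtubule-associated protein and classic member, stood at 1356 and 1246 against 638 and 581 FPKM (log2 1.09). With the trend on coding length and GC taken out of the values, the median of the 39 members that have a coding length went from 0.92 to -0.09. Then 5 were higher and 5 lower. When RIP replicate A was omitted, 20 of the 42 were called higher.

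Chromatin regulators were high as groups. All 9 CHD remodeller genes were higher, with a median of 1.38. Chd8, an autism gene, stood at 125 and 121 against 40.6 and 41.6 FPKM (log2 1.56), and Chd3 at 572 and 583 against 220.0 and 230.1 FPKM (log2 1.35). Of 27 histone lysine methyltransferase genes, 19 were higher and 0 lower. Kmt2d, which methylates histone H3 at enhancers, stood at 132 and 129 against 26.9 and 27.4 FPKM (log2 2.22, adjusted p = 0.000677, limma), and Kmt2a at 206 and 213 against 58.6 and 65.3 FPKM. With the coding length and GC trend removed, the medians were 0.44 for 8 CHD genes (4 higher, 0 lower) and 0.27 for 22 methyltransferase genes (7 higher, 0 lower). Of 28 BAF complex genes, 12 were higher and 1 lower. The ATPase gene Smarca4 stood at 217 and 225 against 64.2 and 62.9 FPKM, and the small DNA-binding subunit Smarce1, the member that was lower, at 63.2 and 64.1 against 81.7 and 86.0 FPKM (log2 -0.39). Without RIP replicate A, 7 CHD, 10 methyltransferase and 4 BAF genes were higher.

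**Figure D4:**
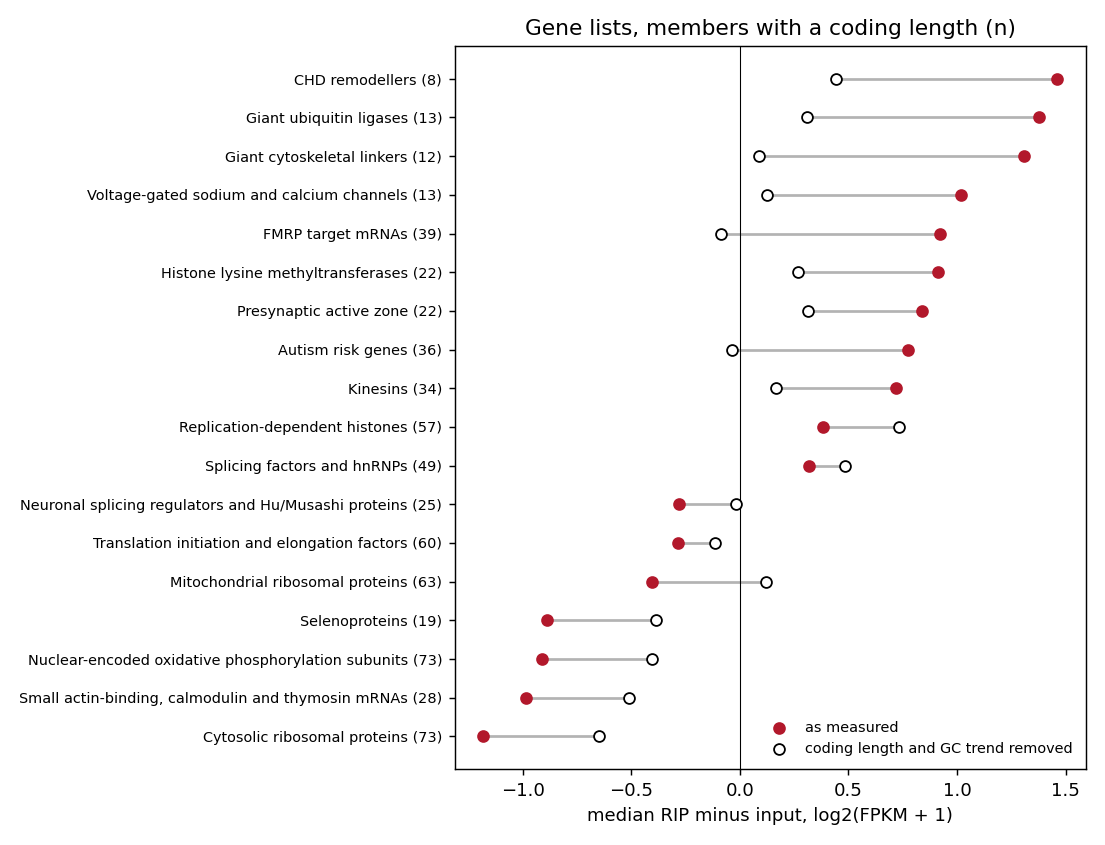
Median difference between RIP and input on the log2(FPKM + 1) scale (x axis) for gene lists, over the members with a coding length (number in brackets). Filled circles are the measured medians and open circles those after the trend on coding length and GC was removed, which brings the FMRP targets to -0.09 while the cytosolic ribosomal proteins stay at -0.65 and the replication-dependent histones move up to 0.74.

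Presynaptic genes were mostly higher. Of 24 presynaptic active zone genes, 17 were higher and 2 lower (median 0.82). The giant scaffolds Pclo, at 223 and 219 against 72.3 and 70.3 FPKM, and Bsn, at 106 and 95 against 34.0 and 35.3 FPKM, were higher (log2 1.62 and 1.51). So was Unc13a, which primes vesicles, at 121 and 119 against 28.5 and 37.0 FPKM (log2 1.85). The 2 that were lower encode SNARE proteins of vesicle fusion: Snap25 at 43.8 and 41.0 against 79.6 and 74.3 FPKM (log2 -0.84), and Vamp2 at 31.3 and 32.2 against 78.4 and 55.0 FPKM (log2 -1.02). Among 18 postsynaptic scaffold genes, 10 were higher, with Magi1 (log2 1.42) and Shank2 (log2 1.12) in the lead, and Dlg2, Homer1 and Homer2 were lower (log2 -0.51, -0.94 and -0.56). After removal of the coding length and GC trend, the postsynaptic list held 1 higher and 3 lower and its median over 17 genes went from 0.47 to -0.12, the presynaptic list held 9 higher and 2 lower, and Bsn turned to -0.17. With RIP replicate A left out, 7 presynaptic and 3 postsynaptic genes were higher.

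Ionotropic receptor genes were called at shares near those of all genes tested. The 6 that were lower encode GABA-A subunits and the 5 that were higher glutamate receptor subunits, a difference between families that was not tested. Gabrb2 stood at 13.0 and 14.2 against 30.2 and 32.5 FPKM (log2 -1.15) and Gabra5 at 15.3 and 15.3 against 31.4 and 31.2 FPKM (log2 -0.99). The glutamate receptor genes Grik5, Grin1, Grin2d, Gria2 and Grin2b were higher (log2 1.12, 1.00, 1.02, 0.49 and 0.46). In all, 5 of the 27 receptor genes were higher and 6 lower, without RIP replicate A 0 and 1, and with the coding length and GC trend removed 2 and 7. Grin2b turned negative with length and GC trends removed (-0.23) and in its most abundant transcript (-0.40), and Grin2d with the coding length and GC trend removed (-0.03). Gabra5 overlaps other annotated genes.

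Autism risk genes, many of which encode the proteins above, included 22 higher and 3 lower of 39 (median 0.76). Reln, the migration cue of Cajal-Retzius cells, stood at 178 and 163 against 76.6 and 73.6 FPKM (log2 1.17), and Ank2 at 698 and 743 against 389 and 371 FPKM (log2 0.92). Those that were lower included the ligase scaffold Cul3 (log2 -0.83) and the transcription factor gene Tcf4 (log2 -0.43). With the coding length and GC trend removed, the list's median was -0.04, with 6 genes higher and 8 lower. Reln then stood at -0.02, Ank2 at -0.42 and Tcf4 at 0.33. Single large cadherin and guidance genes that were higher were Celsr3 and Dchs1 (log2 1.90 and 1.80) of planar polarity, the axon repellent Slit1 (log2 1.76) and the semaphorin receptor Plxna3 (log2 1.79). Of 75 protocadherin and large cadherin genes 12 were higher and 0 lower, a share below the 19.3% of all genes tested, and of 62 axon guidance genes 19 and 3. After removal of the coding length and GC trend, the cadherin list held 0 higher and 6 lower (median -0.26) and the guidance list 4 higher and 11 lower (median -0.17). When RIP replicate A was omitted, 8 autism genes, 4 cadherin and 6 guidance genes were higher.

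The small GTPase pathway named for AUTS2 in the cytoplasm went both ways. Several exchange factors that switch Rac1, Cdc42 or their relatives on were higher, and Dock1 did not pass (log2 0.58). Trio stood at 126 and 111 against 40.2 and 38.4 FPKM (log2 1.56), Kalrn was higher by 1.36 and Prex1 stood at 39.4 and 34.9 against 14.2 and 15.4 FPKM (log2 1.27). The GTPase genes Rac1 and Cdc42 were lower. Rac1 stood at 43.3 and 38.2 against 94.9 and 94.98 FPKM (log2 -1.20, adjusted p = 0.00129, limma), and Cdc42 at 24.3 and 26.3 against 60.5 and 62.1 FPKM (log2 -1.25, adjusted p = 0.00126, limma). Actr3, a subunit of the Arp2/3 actin nucleator, was lower too (log2 -1.56). Of the 42 genes of the list, 11 were higher and 16 lower, and without RIP replicate A 4 and 4. With the coding length and GC trend removed, Cdc42 stood at -0.26, Prex1 at 0.12 and Trio at 0.20, while Actr3 stood at -1.05.

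Cytoskeletal genes of young neurons went both ways as well. Dcx, doublecortin of migrating neurons, stood at 81.2 and 92.6 against 188 and 200 FPKM (log2 -1.15). Stmn2, the growth cone stathmin, stood at 123 and 135 against 231 and 209 FPKM (log2 -0.77), and Stmn1 was lower as well (log2 -0.45). Of this list of 19 genes, 8 were higher and 9 lower, and without RIP replicate A 1 and 2. After removal of the coding length and GC trend, 2 were higher and 4 lower, and Stmn1 turned to 0.13. Of 19 genes for tubulins and gamma-tubulin complex proteins, 6 were higher and 3 lower (median 0.16), against 19.3% and 16.6% of all genes tested. Those higher were Tubg2 and the complex genes Tubgcp2, Tubgcp3, Tubgcp4, Tubgcp5 and Tubgcp6 (log2 0.83, 1.14, 1.5, 0.98, 0.80 and 1.61). Those lower were the tubulin genes Tuba1a, Tuba1c and Tubb2b (log2 -0.47, -0.84 and -0.34), and 0 were lower without any single library.

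Splicing factor genes were more often higher than lower. Of 62 splicing factor and hnRNP genes, 23 were higher and 5 lower. The median was 0.32 over the 49 with a coding length and 0.48 once the trend on coding length and GC was removed, with 23 of them higher and 1 lower. The serine and arginine-rich coactivators led: Srrm2 stood at 565 and 571 against 147 and 164 FPKM (log2 1.87), and Srrm1 at 328 and 357 against 91.8 and 100.4 FPKM (log2 1.82 as measured and 1.41 with the trend removed). Pnisr, another arginine and serine-rich protein gene, stood at 228 and 233 against 94.0 and 94.5 FPKM (log2 1.28 and 1.31). The kinase gene Prpf4b was higher by 1.31. The 5 that were lower were all hnRNP genes: Hnrnpa1, Hnrnpab, Hnrnpd, Hnrnpf and Hnrnph2, by -0.66, -0.71, -0.69, -0.78 and -0.85. As many hnRNP genes were higher: Hnrnpul1, Hnrnpll, Hnrnpl, Hnrnpu and Hnrnpdl (log2 1.08, 0.88, 0.83, 0.76 and 0.58). Hnrnpd turned to 0.23 with the coding length and GC trend removed, and Hnrnpf to 0.06 in its most abundant transcript. Without RIP replicate A, 14 splicing genes were higher and 0 lower.

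Neuronal splicing regulators and Hu proteins went the other way more often. Of 26 such genes, 4 were higher and 9 lower, with a median of -0.29. The share higher was below the 19.3% of all genes tested, and the share lower was above their 16.6%. Elavl2, a Hu protein, stood at 10.5 and 10.6 against 31.3 and 26.3 FPKM (log2 -1.36, adjusted p = 0.0022, limma). The 4 that were higher were Celf3, Ptbp1, Rbfox3 and Srrm4 (log2 1.11, 1.07, 0.79 and 0.77). With RIP replicate A left out, 1 of the list was higher and 1 lower. With the coding length and GC trend removed the median was -0.02.

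Linker histone genes, with coding sequences of 636 to 669 bases, were higher in the RIP. Hist1h1e stood at 1362 and 1223 against 314 and 312 FPKM (log2 2.04, SE 0.08, adjusted p = 0.000677, limma). Hist1h1d stood at 283 and 272 against 86.6 and 100.5 FPKM (log2 1.56), Hist1h1b at 83.2 and 79.7 against 30.4 and 32.9 FPKM (log2 1.34), and Hist1h1c at 143 and 141 against 64.1 and 74.7 FPKM (log2 1.03). With the trend on coding length and GC removed, they stood at 2.46, 2.55, 1.55 and 1.28. These mRNAs end in a stem-loop and mostly lack a polyA tail. Core histones of the same clusters were mixed. Hist1h2bj, Hist1h2bp and Hist1h2bf were higher (log2 2.14, 1.84 and 1.57), but none of these 3 passed without either RIP replicate, and Hist1h2bj did not pass with the letter as a replicate block (adjusted p = 0.0834, limma). Hist1h3a and Hist1h3c were lower (log2 -1.16 and -1.35), and Hist1h4d stood at 74.0 and 88.7 against 158 and 143 FPKM (log2 -0.88). Over 58 replication-dependent histone genes 19 were higher and 10 lower, and without RIP replicate A 5 and 0. Of all genes tested, 19.3% were higher and 16.6% lower, and the histone share that was lower is near the latter. Near-identical copies within these clusters make the single core histone values uncertain.

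The protein-coding genes that lay lowest included 5 for ribosomal proteins and 2 for selenoproteins. Rps15a, a protein of the small ribosomal subunit, stood at 11.8 and 8.82 FPKM in the RIP and at 81.6 and 81.9 in the input (log2 -2.89, SE 0.16, adjusted p = 0.000677, limma), 7.95 times lower in the mean. Rplp1, of the ribosomal stalk, stood at 85.2 and 116 against 523 and 624 FPKM (log2 -2.51). Rpl39, Rpl34 and Rps23 were also among the 10 (log2 -2.49, -2.46 and -2.35). Snrpf, a core Sm protein of spliceosomal particles, stood at 3.40 and 8.67 against 41.4 and 50.1 FPKM (log2 -2.83). Spaca6, whose locus on chromosome 17 also holds the genes Mir99b, Mirlet7e and Mir125a, stood at 14.5 and 15.1 against 77.5 and 95.5 FPKM (log2 -2.46). In each of these the groups were apart. Without input replicate B, 7 of the 10 kept their call, without input replicate A 8, and without a RIP library all 10.

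For some of these the IgG libraries were near the input and for others near the RIP. Igf2, the imprinted fetal growth factor, stood at 1.61 and 2.55 FPKM in the RIP, 23.4 and 16.6 in the input and 23.8 and 21.8 in IgG (log2 RIP minus input -2.77, adjusted p = 0.00143, limma). Spaca6 was at 98.8 and 117 FPKM in IgG, and Selenot, at 4.95 and 7.33 in the RIP, was at 35.5 and 42.6. Rps15a was at 13.3 and 17.9 FPKM in IgG, Rps23 at 12.01 and 18.4, and Rpl39 at 8.01 and 11.2. IgG values come from a separately scaled table.

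Ribosomal and respiratory genes were low as groups. Of 84 cytosolic ribosomal protein genes, 60 were lower and 0 higher (median -1.06). Of 79 nuclear-encoded oxidative phosphorylation genes, 47 were lower and 3 higher (median -0.93). Cox6c stood at 35.2 and 44.5 against 173 and 170 FPKM, Uqcrb at 9.59 and 11.2 against 54.9 and 51.1 FPKM, and Cox8a at 38.5 and 42.0 against 149 and 145 FPKM (log2 -2.09, -2.25 and -1.85). The 3 that were higher were Ndufv1, Ndufv3 and Sdhb (log2 0.45, 0.80 and 0.46). With the letter as a replicate block, Ndufv1 and Sdhb did not pass (adjusted p = 0.0529 and 0.0658, limma). Medians of RIP minus IgG in their own table were 0.06 for the cytosolic ribosomal protein genes and -0.03 for the respiratory genes. IgG minus input, across tables, was -1.08 and -0.81. With the trend on coding length and GC removed, the RIP minus input medians were -0.65 (73 genes, 38 lower and 7 higher) and -0.41 (73 genes, 26 lower and 5 higher). Without input replicate B, 23 ribosomal protein genes were lower and 2 higher, and without RIP replicate A 19 respiratory genes were lower and 0 higher. Reads of ribosomal protein genes can be split with near-identical pseudogene copies.

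Short abundant mRNAs of other functions were mostly lower. Of 30 genes for thymosins, calmodulins, fatty acid-binding and small actin-binding proteins, 25 were lower and 0 higher (median -1.02), and 16 were lower without RIP replicate A. After removal of the coding length and GC trend, 19 were lower and 6 higher. Tmsb4x, thymosin beta 4, stood at 61.0 and 77.9 against 326 and 335 FPKM (log2 -2.24), and Fabp7, a lipid carrier of radial glia, at 60.5 and 65.1 against 203 and 210.2 FPKM (log2 -1.71). Translation factors went both ways. Eef1a1, the main elongation factor, stood at 356 and 408 against 802 and 844 FPKM (log2 -1.11), and the large scaffolds Eif4g1 and Eif4g3 were higher (log2 1.45 and 1.63). Over 66 such genes 11 were higher and 22 lower, and without RIP replicate A 4 and 5. Of all genes tested, 19.3% were higher and 16.6% lower, and the share of translation factors that was higher is near the former.

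Selenoprotein mRNAs, which are translated through a UGA codon, held 2 of the 10 largest falls and were low as a list. Of 19 tested, 11 were lower and 2 higher (median -0.89). The stretch around the first in-frame TGA of the coding sequence is shown for 3 of them because that codon defines the family. It is printed 5′ to 3′ from the GENCODE vM21 transcripts on GRCm38, with the codon in capitals.
Selenot: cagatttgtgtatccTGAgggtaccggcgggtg
Selenof: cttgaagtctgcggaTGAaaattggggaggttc
Selenop: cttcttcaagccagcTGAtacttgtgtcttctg
Selenot, an oxidoreductase of the endoplasmic reticulum whose TGA is codon 49, stood at 4.95 and 7.33 against 41.7 and 36.5 FPKM (log2 -2.51, adjusted p = 0.00107, limma). Selenof, with TGA at codon 93, stood at 8.16 and 17.2 against 66.2 and 64.0 FPKM (log2 -2.36). Selenop, the selenium carrier with 10 in-frame TGA codons, stood at 5.70 and 7.17 against 33.4 and 32.0 FPKM (log2 -2.19), and Selenow at 53.4 and 59.2 against 168 and 183 FPKM (log2 -1.62). Selenon and Selenoo were higher (log2 0.60 and 0.79). With the trend on coding length and GC removed, the median was -0.39, with 5 lower and 0 higher. When RIP replicate A was omitted, 5 were lower and without RIP replicate B 4.

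Small structured RNAs of the cell's housekeeping particles were depleted most in the pull-down among genes with other than Gm symbols. All 13 members tested were lower, with a median of -2.60; 12 are non-coding and Lars2 is a protein-coding gene (log2 -1.43). Rn7s1 and Rn7s2, the RNA of the signal recognition particle that directs nascent proteins to the endoplasmic reticulum, stood at 23.6 and 51.4 against 1341 and 1544 FPKM, and at 34.2 and 97.1 against 2167 and 2359 FPKM (log2 -5.33 and -5.27). Their annotated sequences are 300 bases long with 0 mismatches, so reads cannot be assigned to one copy. Rn7s6, a further copy, stood at 8.39 and 33.4 against 721 and 816 FPKM (log2 -5.42, SE 0.57, adjusted p = 0.00215, limma). RIP replicate B was above A in each, and both lay far below the inputs.

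The Y RNAs, which carry the autoantigen Ro60, differed from each other. They are printed from GENCODE vM21 because they share a stem yet fell by unequal amounts. Capitals mark a run of 7 bases, GGTCCGA, that starts at position 5 of both.
Rny1: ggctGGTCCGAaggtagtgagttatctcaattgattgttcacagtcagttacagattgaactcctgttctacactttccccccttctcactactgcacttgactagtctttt
Rny3: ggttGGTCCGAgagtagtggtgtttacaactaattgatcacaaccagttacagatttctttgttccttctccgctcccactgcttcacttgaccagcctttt
Rny1 (chr6:47788069-47788180, minus strand) stood at 39.3 and 95.6 against 1408 and 1702 FPKM (log2 -4.63, SE 0.39). Rny3 (chr6:47781624-47781725, plus strand), with nearly equal input values of 1408 and 1727 FPKM, stood at 237 and 278 FPKM (log2 -2.60, SE 0.13). In IgG, Rny1 was at 156 and 361 FPKM and Rny3 at 610.4 and 926.

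Rpph1, the RNA of the tRNA-processing enzyme RNase P, stood at 110.2 and 194 against 2697 and 3445 FPKM (log2 -4.37). Vaultrc5, a vault RNA, stood at 1.71 and 5.22 against 79.1 and 90.5 FPKM (log2 -4.38). Rn7sk, the nuclear RNA that holds the elongation kinase P-TEFb inactive, was lowered least among the non-coding ones named, at 2036 and 2163 against 5840 and 6438 FPKM (log2 -1.55). It was the most abundant of them in the RIP. IgG values lay between the RIP and the input for each of these RNAs, across separately scaled tables: 221 and 139 FPKM for Rn7s2, 606 and 585 for Rpph1 and 4046 and 3867 for Rn7sk. Without any single library, 11 of the 13 were lower.

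**Figure D5:**
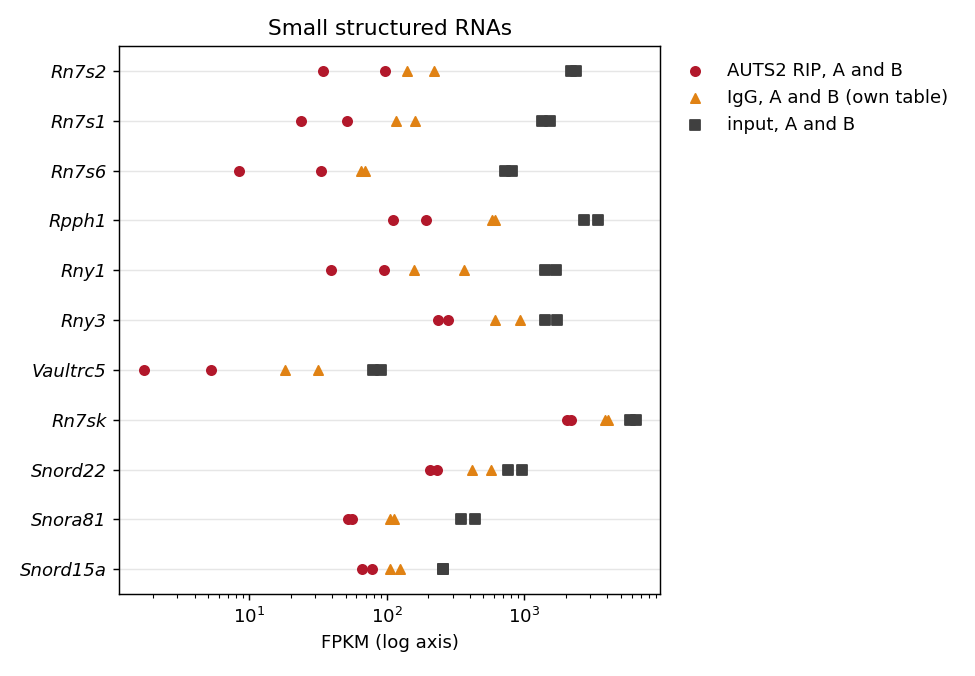
FPKM in each library (x axis, log scale) of 8 housekeeping and 3 small nucleolar RNAs. Circles are AUTS2 RIP, triangles IgG from its own table and squares input; RIP values lie left of the IgG values and these left of the input values in every row.

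Small nucleolar RNAs, which guide chemical modification of ribosomal and spliceosomal RNA, were more often lower than higher. Of 84 snoRNA and Cajal body RNA genes with names of that form, 39 were lower and 3 higher (median -0.88). Sequences of both main classes are printed, with 1 that was lower and 2 that were higher, from GENCODE vM21 on GRCm38. Capitals mark the C box letters TGATG and D box CTGA of the box C/D RNAs and the terminal ACA of Snora9, searched on the transcript strand only.
Snord15a: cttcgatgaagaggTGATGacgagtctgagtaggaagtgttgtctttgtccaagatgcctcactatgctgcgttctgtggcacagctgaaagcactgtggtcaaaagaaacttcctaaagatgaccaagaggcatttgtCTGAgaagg
Snord88a: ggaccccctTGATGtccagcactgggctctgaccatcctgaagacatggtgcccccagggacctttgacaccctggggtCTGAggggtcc
Snora9: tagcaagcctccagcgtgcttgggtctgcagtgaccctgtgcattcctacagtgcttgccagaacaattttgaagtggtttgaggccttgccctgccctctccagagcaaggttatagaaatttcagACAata
Snord15a (chr7:99482785-99482932) stood at 66.0 and 77.4 against 256 and 258 FPKM (log2 -1.83). Snora81, in the gene Eif4a2, stood at 52.4 and 55.7 against 348 and 439 FPKM (log2 -2.83), and Snord22, in Snhg1, at 205 and 230 against 753 and 961 FPKM (log2 -1.97). Each lies inside a host gene.

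The 3 that were called higher rest on low values. Snora9 (chr11:6528033-6528165) stood at 7.80 and 2.94 FPKM, Snord88a (chr7:44250135-44250224) at 8.14 and 2.73, and Snord68 at 2.81 and 2.89. All of them were listed at 0 in both inputs, so no fold is given. In the IgG table Snora9 was at 3.58 and 0 FPKM, Snord88a at 0 and 8.70, and Snord68 at 0 in both. Without RIP replicate A none of the list was higher and 13 of the list were lower.

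Other classes of non-coding genes also lay below the protein-coding genes. Protein-coding genes had a median difference of 0.07 (12195 genes), snoRNA genes -0.66 (209), snRNA genes -1.08 (204), lincRNA genes -0.46 (236), antisense genes -0.37 (149) and processed pseudogenes -0.42 (635). Within genes, transcripts annotated with a retained intron lay above the coding transcripts of the same gene. The median of that difference was 0.19 over 3449 genes, 0.20 in pair A and 0.14 in pair B, and it was above 0 in 58.2% of genes. Transcripts annotated for nonsense-mediated decay differed from the coding ones by 0.02 over 1071 genes. Transcript values are estimates from shared reads, and retained-intron models were short, with a median of 1018 bases.

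Long non-coding RNAs of known nuclear role went both ways. Firre, an X-linked RNA that shapes nuclear architecture, stood at 49.7 and 49.5 against 14.9 and 17.3 FPKM (log2 1.57, adjusted p = 0.00107, limma). Snhg14, the long host transcript of the imprinted Prader-Willi region, stood at 165 and 176 against 58.2 and 63.6 FPKM (log2 1.47). Trerf1, listed with a non-coding type but not a member of the list counted below, was higher by 1.31. On the low side Dlx6os1, an antisense RNA of interneuron development, stood at 6.82 and 7.06 against 23.4 and 25.7 FPKM (log2 -1.68), with IgG at 35.3 and 33.2. Sox2ot was lower at 14.8 and 16.7 against 37.2 and 40.9 FPKM (log2 -1.26), and the paraspeckle RNA Neat1 was lower too (log2 -1.52). Xist, Tug1, Pantr1 and Malat1 were also lower (log2 -1.17, -1.12, -1.27 and -0.44). Of 27 long non-coding RNAs listed, 6 were higher and 7 lower, and without RIP replicate A 2 and 3. Of all genes tested, 19.3% were higher and 16.6% lower. Among 15 snoRNA host genes, 3 were higher (Snhg14, Snhg5 and Snhg11, log2 1.47, 0.70 and 0.67) and 2 lower, with Epb41l4aos at -1.79. Both shares are near the 19.3% and 16.6% of all genes tested. Without either RIP replicate, 1 snoRNA host gene was higher and 0 lower. Snhg5 turned to -0.33 in its most abundant transcript. Snhg14, Dlx6os1 and Sox2ot overlap other annotated genes.

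Imprinted growth genes ran from -2.77 to 1.68 on the log2 scale. Against Igf2 at the lower end stood Igf2r, the receptor that clears its product, at 47.2 and 45.1 against 16.0 and 17.9 FPKM (log2 1.40). The large zinc finger gene Peg3 stood at 144 and 140.2 against 48.9 and 48.0 FPKM (log2 1.53), the retrotransposon-derived Peg10 at 31.8 and 27.9 against 8.34 and 10.9 FPKM (log2 1.55), and Magel2 at 11.7 and 10.4 against 3.05 and 2.49 FPKM (log2 1.68). Nnat, neuronatin, was lower at 162 and 202 against 390 and 438 FPKM (log2 -1.19), with IgG at 482 and 444. Of 17 genes, 4 were higher and 5 lower, against 19.3% and 16.6% of all genes tested. With RIP replicate A left out, 2 were higher and 2 lower. With the coding length and GC trend removed, Igf2 stood at -2.44, Peg10 at 1.88 and Igf2r at 0.25.

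Lists of markers of cortical cell types had medians on both sides of 0. In bulk RNA of different tissues, fewer cells of a type and less RNA per cell cannot be told apart. Here both fractions of a letter came from 1 pool, so a median is not a measure of cell number. The median was 0.16 for 14 radial glia genes (1 higher, 3 lower) and 0.18 for 14 interneuron genes (4 higher, 1 lower). It was 0.21 for 11 deep-layer neuron genes (3 higher, 1 lower) and 0.22 for 13 upper-layer neuron genes (5 higher, 4 lower). For 12 astrocyte genes the median was -0.01 (3 higher, 2 lower). It was -0.46 for 11 microglia genes (2 lower, 0 higher) and -0.96 for 5 red blood cell genes (3 lower, 0 higher). For 13 endothelial and pericyte genes it was -0.15 (2 lower, 2 higher). Medians were also below 0 for 12 striatum genes (-0.15), 4 choroid plexus and meninges genes (-0.42) and 10 intermediate progenitor genes (-0.07). Of all genes tested, 19.3% were higher and 16.6% lower, and the microglia share that was lower is near the latter. The summed FPKM of 14 microglia markers was 27.6 and 26 in the RIP and 47.1 and 36.7 in the input, and that of 10 red blood cell markers 27.0 and 45.7 against 79.1 and 89.5, with Hbb-bh1 and Hbb-y at 0 in all 4. The microglia median was -0.98 in pair A and -0.24 in pair B and ran from -0.85 to -0.25 on leaving out 1 library. When RIP replicate A was omitted, 0 microglia and 0 red blood cell genes were called. Within lists, members went both ways: in radial glia Tnc was the only member called higher (log2 1.25) and Fabp7 was 1 of 3 called lower. In the upper layers Plxnd1 and Cux2 were higher (log2 1.31 and 1.13) and Inhba lower (log2 -1.15). In the oligodendrocyte lineage, with 4 of 10 genes higher and 2 lower, Cspg4 was higher (log2 1.75) and Lhfpl3 lower (log2 -1.43). These marker genes were picked after their values were seen, and without RIP replicate A 2 of the 6 (Fabp7 aside) kept their call.

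In the frontal cortex of the conditional knockout, genes called in the pull-down differed little from wild type. Of the 2795 genes called higher, 2645 reached a mean of 1 FPKM there, and their median difference, knockout minus wild type, was -0.03 on the log2 scale. Of the 2393 called lower, 1971 were measured, with a median of 0.04. For the 7616 genes tested but not called it was -9.93e-05. Of the genes called higher, 39.9% were above 0 and of those called lower 65.1%, against 50.4% of all genes measured there. By library, the genes called higher had medians of -0.10, 0.02, -0.01 and -0.01 against the wild type mean, the first being knockout 1, and the genes called lower had medians of 0.07, 0.02, 0.03 and 0.04. Wild type libraries lay between -0.01 and 0.01 for both sets, but each is part of the mean it was set against. Their range is therefore narrowed and does not measure the spread to expect of a knockout library. These libraries share no sample with the pull-down, and the shift was given no test.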

How the data were processed

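Libraries of AUTS2 RIP (n = 2) and input (n = 2) were compared. The deposited values are FPKM per transcript, made by the authors with STAR 2.5, SAMtools and Cuffdiff 2.2.1, per the submitters' processing notes, on GRCm38.p4. FPKM tables hold no counts, so depth is unknown and no count test was used. Tables with IgG and with frontal cortex were scaled separately and were read side by side only. Transcripts were matched to GENCODE vM21 (127975 of 128508) and summed per symbol, genes whose mean reached 1 FPKM were kept, and log2(FPKM + 1) was tested with limma 3.58.1 (trend and robust settings) in R 4.3.3. P-values were adjusted by the Benjamini-Hochberg method over 14458 genes. A call needed an adjusted p under 0.05 and the same sign in pairs A and B. A fold on the log2(FPKM + 1) scale understates the change of low genes.

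The rule for named genes took Auts2 and Emx1, the 10 protein-coding and 5 non-coding genes with the largest called differences in each direction, whose groups did not overlap and whose higher group had a mean of at least 5 FPKM, and up to 4 members per list by smallest p, with called members that went against the list. Clone-named symbols and pseudogenes were left out of the rankings; other named genes were chosen after their values were seen. Members and lists were chosen with earlier results of these data known. A trend on coding length and GC was removed with splines of 4 degrees of freedom over 10880 genes, an alternative chosen after seeing the data. The letter marks a shared tissue pool, per the labels' protocols and design text, so the letters pair the libraries. Deviations from the group means had a correlation of 0.01 between RIP and input. The main fit left out the pairing and treated the 4 libraries as independent. Its p-values measure the spread between the 2 libraries of a group, moderated across genes by limma. Both groups came from the same 2 pools. The script was tested on simulated data. Some results are not reported here.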

Additional observations from a re-analysis of the deposited data

How the results depend on the processing

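With the letter as a replicate block, which pairs the libraries of 1 tissue pool, 2814 genes were higher and 2408 lower, and all 55 list medians kept their sign; the block moved no count of calls by over 1.5 times and, among the genes named with values, ended the calls of Ndufv1, Sdhb and Hist1h2bj only. Leaving out 1 library gave 578 to 1854 higher and 450 to 1236 lower genes. Using each gene's most abundant transcript alone gave 1628 higher and 1499 lower, with Grin2b at -0.40, Hnrnpf at 0.0641 and Snhg5 at -0.33 on the log2 scale. Removing the trend on coding length and GC gave 1431 higher and 954 lower, and 15 of 53 list medians changed sign. Under it Fbrs stood at -0.078, Bsn at -0.17, Grin2b at -0.165, Grin2d at -0.0332, Reln at -0.0243, Ank2 at -0.42, Tcf4 at 0.33, Hnrnpd at 0.23 and Stmn1 at 0.13. Removing a trend on transcript length and GC put Grin2b at -0.23, with and without the replicate block. Genes at least 2-fold higher in both pairs numbered 532 with a pseudocount of 5, 600 without the transcript length and GC trend and 285 without that on coding length and GC. Genes at least 2-fold lower in both pairs numbered 369, 689 and 130 in the same order, 666 among protein-coding genes only and 614 among genes with an annotated coding sequence. The cause of these changes was not tested, except that the last 2 counts cover fewer genes. Without reads or counts, the depth that limits low values is unknown.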
